A study of Mus musculus with 8 samples.

Results

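The NMDA receptor subunits are the 7 genes Grin1, Grin2a, Grin2b, Grin2c, Grin2d, Grin3a and Grin3b, taken by gene symbol from 24343 genes measured by bulk RNA sequencing of the adult mouse brain. All 7 were found, as 10 RefSeq transcripts. The tissue was whole brain from 3 C57BL/6NCrl mice aged 56–62 days. The 8 libraries comprised 3 of mouse 1, 3 of mouse 2 and 2 of mouse 3, with no treatment or allele named, so that the only comparison possible is between individual mice. Neither the sex of the animals nor the meaning of the library numbers is in the labels. Because several libraries came from each animal, means and SDs are over mice (n = 3), and p-values between mice measure only the spread between these libraries, which may be technical. The values are FPKM, that is, sequenced fragments corrected for transcript length and for sequencing depth, summed over the transcripts of a gene.

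NMDA receptors with GluN2 subunits are glutamate-gated channels that pass calcium. They open only when glutamate and a co-agonist, glycine or D-serine, are bound and depolarization has relieved a magnesium block. Each NMDA receptor contains the obligatory subunit encoded by Grin1, which binds the co-agonist, together with glutamate-binding GluN2 subunits (Grin2a to Grin2d) or glycine-binding GluN3 subunits (Grin3a and Grin3b). In rodents, Grin2b and Grin2d are prominent early in development, Grin2a rises after birth, and Grin2c is known for its expression in cerebellar granule cells.

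Alternative splicing of Grin1 changes the protein outside the membrane and at its intracellular end, and the 3 Grin1 transcripts in the table differ in exactly these parts. The sequences below show them on the minus strand of chromosome 2 (GRCm38, GENCODE transcripts), with the alternative part in capitals and up to 15 bases of the neighbouring exons in lower case.
N1 cassette: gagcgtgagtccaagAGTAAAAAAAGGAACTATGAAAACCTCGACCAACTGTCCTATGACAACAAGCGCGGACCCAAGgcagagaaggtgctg
C1 cassette: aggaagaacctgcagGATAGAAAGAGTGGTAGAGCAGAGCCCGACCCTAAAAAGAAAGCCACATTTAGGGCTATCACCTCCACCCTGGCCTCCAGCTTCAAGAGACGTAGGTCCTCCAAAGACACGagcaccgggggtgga
C2 coding part: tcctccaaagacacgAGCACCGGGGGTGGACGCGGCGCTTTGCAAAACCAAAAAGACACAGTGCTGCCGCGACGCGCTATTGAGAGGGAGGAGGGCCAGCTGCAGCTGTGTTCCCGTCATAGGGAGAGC
C2′ coding part: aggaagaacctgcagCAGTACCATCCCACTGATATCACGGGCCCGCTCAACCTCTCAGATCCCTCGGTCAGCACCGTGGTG

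The N1 cassette is a coding exon of 63 bases (chr2:25311343-25311405) that lies in the extracellular amino-terminal domain and was present in NM_001177656 alone. The C1 cassette is a coding exon of 111 bases (chr2:25294438-25294548), present only in NM_008169. The carboxy-terminal end was C2 in NM_008169, with 114 coding bases (chr2:25292371-25292484), and C2′ in the other 2 transcripts, with 66 coding bases (chr2:25292063-25292128) reached through a splice site 356 bases further along the last exon. These parts account for the deposited lengths, as NM_001177656 is 63 bases longer than NM_001177657 (3905 and 3842 bases) and NM_008169 is 467 bases longer (4309 bases). The table thus lists the form with C1 and C2 and without N1 (NM_008169), the form with N1 and C2′ and without C1 (NM_001177656) and the form with neither cassette and C2′ (NM_001177657). GENCODE lists 8 coding Grin1 transcripts. Reads from combinations outside the 3 models could be assigned only to these models.

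Grin3a had 2 transcripts, which differ by 60 coding bases at the start of the last exon (minus strand, chr4:49665566-49665625), part of NM_001276355 (7711 bases) and not of NM_001033351 (7651 bases). The insert is shown in capitals between its neighbouring bases.
Grin3a insert: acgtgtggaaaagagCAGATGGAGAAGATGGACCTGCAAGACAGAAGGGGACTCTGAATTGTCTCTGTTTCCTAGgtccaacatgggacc

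The other 5 subunits had 1 transcript each, and the sequences that the subunits share bear on whether their reads can be told apart. Over the 21 pairs of coding sequences, the longest run of identical bases was 34, between Grin2b and Grin2c, followed by 32 between Grin2c and Grin2d and 28 between Grin2a and Grin2d, whereas no run shared by Grin1 with another subunit was over 14 bases. Only 2 of the 21 pairs thus shared a run of 30 bases or more, unlike the transcripts of Grin1 or of Grin3a, which share most of their bases.

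Each library had 1.31 to 2.02 gigabases of sequence on transcripts. The libraries of mouse 3 stood apart from those of mice 1 and 2. Over the 13001 genes that averaged 1 FPKM or more, Spearman's correlation across genes between transcript length and a library's deviation from the mean of the libraries was -0.36 and -0.57 in libraries 1 and 2 of mouse 3 and between 0.18 and 0.50 in the other 6, so that long transcripts read lower in mouse 3. The summed FPKM of 4 oligodendrocyte markers was 3676 and 4561 in mouse 3 against 1902 to 2100 in the other libraries, and that of 5 astrocyte markers was 452 and 473 against 313 to 331. The sums of 3 GABAergic markers (151 and 123 against 178 to 216), of 5 markers of forebrain excitatory neurons (44.8 and 48.9 against 63.1 to 72.7) and of 4 neuronal markers (1308 and 1465 against 1523 to 1643) were lower in mouse 3. No marker of neurons, glia, endothelium or choroid plexus was at 0 in any library, whereas 3 of 4 pituitary markers (Prl, Gh and Lhb) were at 0 in at least 1 library.

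Grin1 was by far the most abundant subunit, with 52.3 ± 10.6 FPKM (SD, n = 3), rank 1202 of the 24343 genes. It had 58.1, 59.1 and 62.5 FPKM in the libraries of mouse 1, 50.2, 59.1 and 61.0 in those of mouse 2, and 46.2 and 34.2 in those of mouse 3. Both libraries of mouse 3 lay below the other 6. Grin1 held 59.1% ± 2.5 of the summed FPKM of the 7 subunits (55.9 to 62.1% over the libraries), or 1.45 ± 0.15 times the sum of the other 6.

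Among the GluN2 genes, Grin2c had the highest level, 12.2 ± 0.54 FPKM, with 12.9, 12.2 and 12.9 FPKM in mouse 1, 9.99, 11.6 and 13.3 in mouse 2, and 13.1 and 11.2 in mouse 3. Its libraries showed no separation by mouse, and its coefficient of variation between mice, 4.4%, was the lowest among the subunits, where the others had 11.6 to 79.8% and the median of the 13001 genes was 12.3%. Grin2a had 8.57 ± 1.5 FPKM. Its libraries read 8.07, 8.65 and 8.72 in mouse 1, 10.2, 10.2 and 9.99 in mouse 2, and 9.21 and 5.03 in mouse 3, of which only the last lay outside the range of the rest by a wide margin.

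Grin2b, the other widely expressed forebrain GluN2 gene, had 5.69 ± 1.44 FPKM. Its values were 6.41, 5.80 and 6.20 in mouse 1, 7.06, 7.26 and 6.26 in mouse 2, and 5.69 and 2.49 in mouse 3. As with Grin2a, library 2 of mouse 3 was far lower than library 1 of the same animal, and the deposited bounds of the former (2.18 to 2.80 FPKM) did not reach the level of any other library. Grin2d, which encodes the subunit of slowly deactivating receptors, was the lowest of the GluN2 genes with 2.42 ± 0.52 FPKM, at 3.12, 2.65 and 2.90 in mouse 1, 2.08, 2.61 and 2.82 in mouse 2, and 1.77 and 1.96 in mouse 3. Both libraries of mouse 3 were below the other 6, but the deposited bounds of library 2 (1.60 to 2.32) overlapped those of library 1 of mouse 2 (1.66 to 2.50).

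Of the GluN3 genes, Grin3a was as abundant as the middle GluN2 genes, with 6.72 ± 0.78 FPKM. Its values were 6.98, 7.62 and 7.34 in mouse 1, 5.87, 7.56 and 7.60 in mouse 2, and 6.57 and 5.10 in mouse 3, and the ranges of mice 2 and 3 overlapped. Grin3b was close to the limit of detection, with 0.175 ± 0.14 FPKM and rank 15710. It had 0.416, 0.397 and 0.195 FPKM in mouse 1, 0.0862, 0.0957 and 0.110 in mouse 2, and 0.0696 and 0.113 in mouse 3. The 3 libraries of mouse 1 were the highest, but at a mean depth of only 0.141 to 0.854 reads per base, and the lower bound was 0 in 3 of the 8 libraries. By comparison, the mean depth was 71.9 to 153 reads per base for Grin1 and 3.40 to 7.01 for Grin2d.

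**Figure D1:**
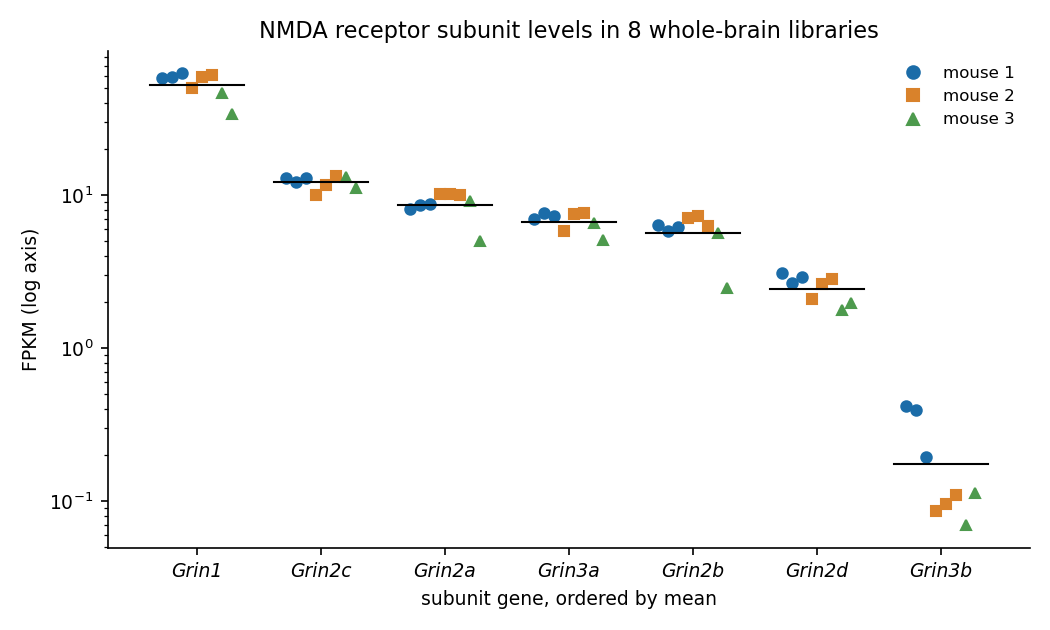
FPKM (log axis) of the 7 subunit genes in the 8 libraries, ordered by mean, with 1 point per library, coloured by mouse, and a line at the mean of the 3 mice. Grin1 lies above all others in every library, Grin2c, Grin2a, Grin3a and Grin2b lie close together, and Grin3b lies below 1 FPKM throughout.

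The mean levels followed the order Grin1, Grin2c, Grin2a, Grin3a, Grin2b, Grin2d and Grin3b. Neighbours were compared by the log2 ratio of their FPKM within each library, in which the scaling of the library cancels. Grin1 exceeded Grin2c 4.23-fold (log2 difference 2.08 ± 0.32, SD, n = 3) and Grin2d exceeded Grin3b 16.96-fold (4.08 ± 0.80), in all 8 libraries and without overlap of their ranges. Grin2b exceeded Grin2d 2.28-fold (1.19 ± 0.24) in all 8 libraries, although the ranges overlapped through library 2 of mouse 3. The 3 steps in the middle were smaller and did not hold in every library. Grin2c exceeded Grin2a 1.45-fold (0.54 ± 0.32), Grin2a exceeded Grin3a 1.26-fold (0.33 ± 0.18) and Grin3a exceeded Grin2b 1.23-fold (0.30 ± 0.30), each in 7 of 8 libraries and with overlapping ranges. For all 6 neighbouring pairs the exact sign-flip permutation test over the 3 mice gave p = 0.25 (two-sided), the smallest value that 3 mice allow, so no step can pass a threshold of 0.05. Of the 3 exceptions, those for Grin2c over Grin2a and Grin3a over Grin2b were library 1 of mouse 2 and that for Grin2a over Grin3a was library 2 of mouse 3. Without library 1 of mouse 2, 5 of the 6 steps held in all remaining libraries, as against 3 with it.

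The level of Grin1 was made up mainly of NM_008169 (C1 and C2), with 27.6 ± 7.8 FPKM or 52.1% ± 5.3 of Grin1, and NM_001177656 (N1 and C2′), with 20.1 ± 2.8 FPKM or 38.8% ± 3.2. In mouse 1, NM_008169 held 59.7, 51.5 and 58.3% of Grin1, in mouse 2, 59.5, 48.7 and 52.4%, and in mouse 3, 50.4 and 42.1%. It was the most abundant transcript in all 8 libraries, though by a small margin in library 2 of mouse 3, where the deposited bounds of NM_008169 (13.0 to 15.8 FPKM) overlapped those of NM_001177656 (12.3 to 15.1). The share of NM_001177656, the form with the N1 cassette, was steadier and ranged from 34.3 to 43.5%, with 36.5, 35.7 and 34.3% in mouse 1, 40.5, 35.8 and 40.8% in mouse 2, and 43.5 and 40.2% in mouse 3.

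The third Grin1 transcript, NM_001177657, without N1 or C1, had 4.56 ± 0.21 FPKM, or 9.12% ± 2.4 of Grin1. The small SD over mice hides a wide spread between libraries of the same animal. Its FPKM was 2.20, 7.57 and 4.65 in mouse 1, 0.0300, 9.21 and 4.09 in mouse 2, and 2.85 and 6.03 in mouse 3, so that mouse 2 held both the lowest and the highest value. The deposited bounds of these extremes (0 to 0.120 and 7.94 to 10.5 FPKM) were far apart, whereas the summed Grin1 level of the same libraries (50.2 and 59.1 FPKM) was similar. The deposited bounds therefore do not cover the spread of single transcripts between libraries of an animal.

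The same held for Grin3a, where NM_001033351, without the 60-base insert, had 5.86 ± 0.75 FPKM and NM_001276355, with it, 0.859 ± 0.13. The form with the insert held 18.8, 6.50 and 7.32% of Grin3a in mouse 1, 22.5, 4.13 and 18.5% in mouse 2, and 23.8 and 0.00109% in mouse 3, so that the highest and the lowest share were those of the 2 libraries of mouse 3. The shorter form was the more abundant in all 8 libraries.

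**Figure D2:**
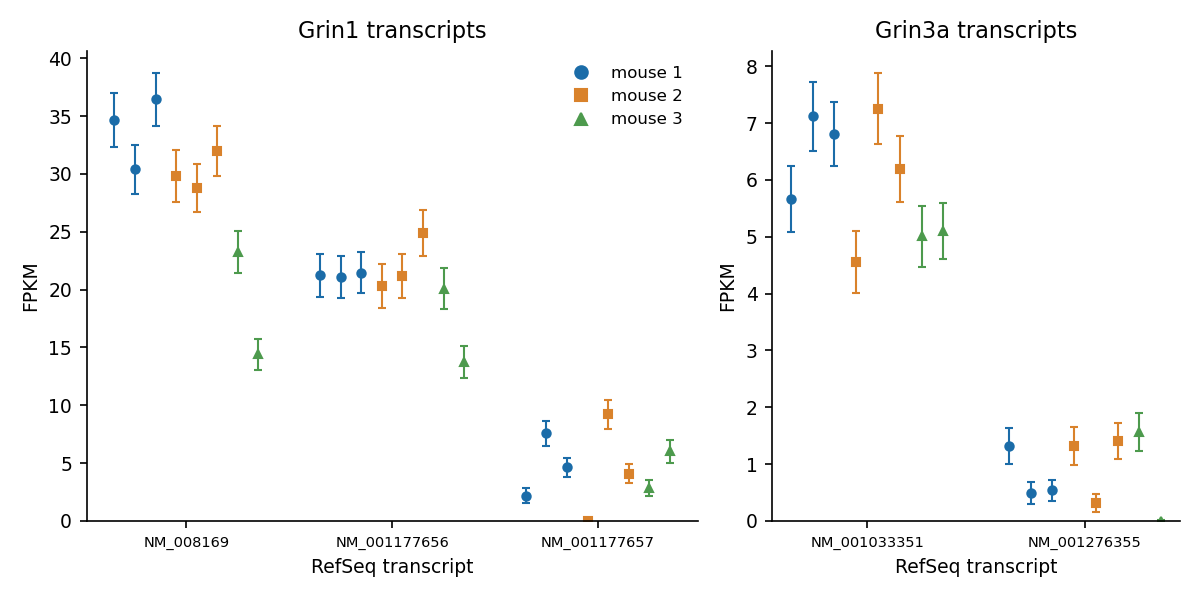
FPKM of the 3 Grin1 transcripts (left) and the 2 Grin3a transcripts (right) in the 8 libraries, with 1 point per library, coloured by mouse, and bars for the deposited confidence bounds. The transcripts NM_001177657 and NM_001276355 vary between libraries of the same mouse by more than their bounds.

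Some of the transcript models behind these levels were short. The Grin2a and Grin2b models of 4512 and 7505 bases compare with the longest GENCODE coding transcripts of these genes (14634 and 24060 bases), and the Grin2d model has 4383 bases against 5431, whereas the Grin2c model of 4895 bases equals the longest. FPKM counts reads within the model per base of model, so reads beyond its end did not enter these levels. The order of the levels, the GluN2 shares and the Grin2a to Grin2b ratio compare genes across these unequal models. The part of the models in them was not tested.

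An antisense gene, Grin1os, overlaps the 3′ part of Grin1 on the plus strand (chr2:25291220-25298925). Of its 2891 exonic bases in GENCODE, 1307 (45.2%) lie over exons of the longest Grin1 model in the table. Grin1os had 7.17 ± 1.83 FPKM, with 7.64, 8.55 and 9.47 in mouse 1, 6.31, 8.68 and 8.57 in mouse 2, and 5.93 and 4.24 in mouse 3, and the ratio of Grin1 to Grin1os stayed between 6.60 and 8.05. The strand setting of the counting is not given in the sources used here, and without strand the reads of the 2 genes cannot be told apart over these bases.

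Within the GluN2 group, Grin2c held 42.8% ± 6.0 of the summed FPKM, Grin2a 29.4% ± 2.7, Grin2b 19.3% ± 3.4 and Grin2d 8.43% ± 0.99. The share of Grin2c was 42.3, 41.7 and 42.0% in mouse 1, 34.1, 36.7 and 41.0% in mouse 2, and 44.1 and 54.2% in mouse 3. Of the 8 libraries, Grin2c exceeded the sum of Grin2a and Grin2b only in library 2 of mouse 3, where that sum was 0.671 of Grin2c, against 1.12 to 1.72 in the other 7 libraries. In that library Grin2c itself had 11.2 FPKM, within its range in the others (9.99 to 13.3). Grin2a (5.03 FPKM) and Grin2b (2.49 FPKM) had their lowest levels there. The summed FPKM of 5 markers of cerebellar granule cells was 166 in the same library and 130 to 140 in the others. The part of this difference in the share of Grin2c was not tested.

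The ratio of Grin2a to Grin2b, often used as a measure of receptor maturation, was above 1 in all 8 libraries, with a geometric mean of 1.55 (0.63 ± 0.20 on the log2 scale, SD, n = 3). It was 1.26, 1.49 and 1.41 in mouse 1, 1.44, 1.40 and 1.60 in mouse 2, and 1.62 and 2.02 in mouse 3. Both libraries of mouse 3 were highest, and library 2 was far above library 1. The exact permutation test over all 280 ways to divide the libraries 3, 3 and 2 gave p = 0.0464 for a difference between the mice, as 13 divisions had a between-group sum of squares at least as large. Without library 2 of mouse 3 the ratio was 1.49 and the same exact test gave p = 0.371, with 1 library left for mouse 3, so that the spread within animals came from mice 1 and 2 alone. Removing the trend with transcript length gave 1.53 with p = 0.0786 in the exact test. Leaving out any other library except library 2 of mouse 1 also ended the call (exact p = 0.0667 to 0.114), with fewer divisions to compare, whereas the ratio itself stayed between 1.53 and 1.60.

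**Figure D3:**
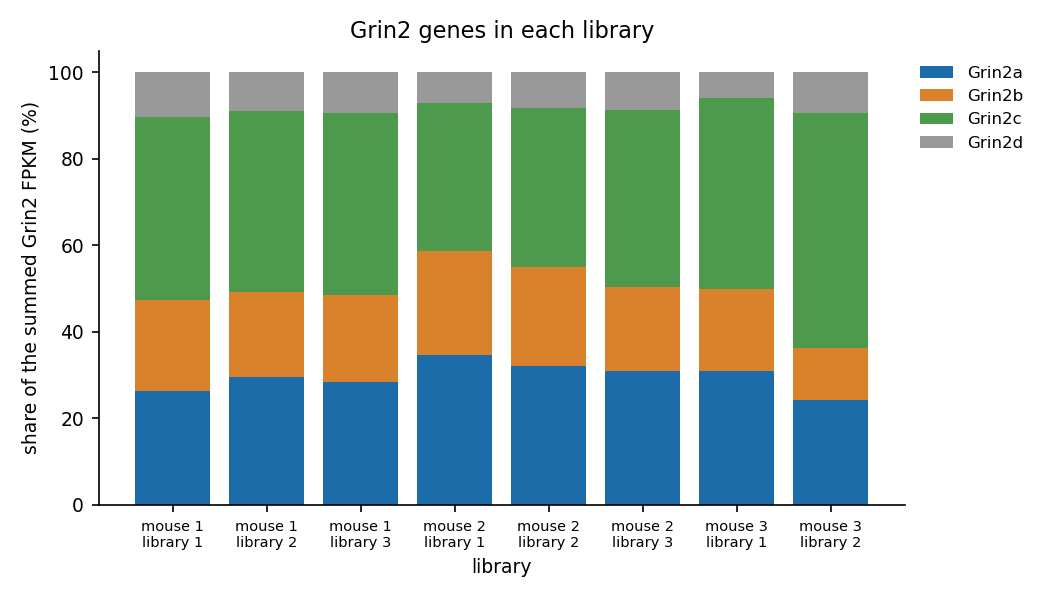
Share of each GluN2 gene in the summed FPKM of the 4 genes (percent, stacked bars), with 1 bar per library. The share of Grin2c is between 34.1 and 44.1% in 7 libraries and 54.2% in library 2 of mouse 3, where that of Grin2b is 12.0%.

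Compared per length with the AMPA and kainate receptors, the other main ionotropic glutamate receptors, the 7 NMDA receptor genes summed to 88.0 ± 14.5 FPKM, the 4 AMPA receptor genes (Gria1 to Gria4) to 247 ± 12 and the 5 kainate receptor genes (Grik1 to Grik5) to 64.6 ± 3.0. The NMDA share of the summed FPKM of these 3 families was 21.9% ± 2.2, against 61.9% ± 1.6 for AMPA and 16.2% ± 0.78 for kainate receptor genes. The NMDA share was 23.3, 22.9 and 23.9% in mouse 1, 21.3, 23.4 and 23.9% in mouse 2, and 21.6 and 17.2% in mouse 3, so that only library 2 of mouse 3 stood clearly below the rest. The summed NMDA level had the largest coefficient of variation between mice of the 3 families, 16.5% against 5.0% for AMPA and 4.6% for kainate receptor genes. Gene by gene, its median was 18.9% for the NMDA receptor genes averaging 1 FPKM or more, 16.1% for AMPA and 8.2% for kainate receptor genes. Within the AMPA sum, mouse 3 was lower than mice 1 and 2 in Gria2 (55.6 against 89.0 and 89.1 FPKM) and Gria3 (29.7 against 41.4 and 43.0). It was higher in Gria1 (91.1 against 77.7 and 77.8) and Gria4 (56.3 against 44.7 and 45.6).

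Whether the subunits differed between the mice was asked by the moderated F-test of limma, on log2(FPKM + 1), over the same 13001 genes, calling adjusted p (Benjamini-Hochberg) below 0.05. Of the 6 subunits tested, 2 passed (33.3%), Grin1 and Grin2d, against 25.5% of all genes tested. Both had their lowest level in mouse 3, and 11.3% of all genes tested passed and were lowest there. Grin3b lay under the minimum level and was not tested. A share of 2 in 6 is near that of all genes, so it is no result about the subunits. Here and below, limma p-values are of the F-test over the 3 mice. They do not test the difference of mouse 3 from mice 1 and 2 beside which they stand. For Grin1, mouse 3 minus the mean of mice 1 and 2 was -0.54 ± 0.12 (SE) on the log2(FPKM + 1) scale (limma adjusted p = 0.0325). For Grin2d it was -0.36 ± 0.098 on the same scale (limma adjusted p = 0.0457). In both genes the 2 libraries of mouse 3 lay below the other 6. The same held for Grin2b (5.69 and 2.49 against 5.80 FPKM or more), which did not pass.

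The remaining subunits did not pass limma's test. The difference of mouse 3 from the mean of mice 1 and 2 was -0.63 ± 0.20 (SE) on the log2(FPKM + 1) scale for Grin2b (limma adjusted p = 0.0951), -0.39 ± 0.16 for Grin2a (limma adjusted p = 0.151) and -0.26 ± 0.12 for Grin3a (limma adjusted p = 0.237). For Grin2c it was 0.0034 ± 0.11 (limma adjusted p = 0.638). Its sign was negative after scaling to TPM (-0.27) or to the upper quartile (-0.06), but under these scalings the median difference of all genes was -0.23 and -0.04, and less that median the values were -0.04 and -0.02. Mouse 3 had the lowest mean of the 3 mice in 5 of the 6 subunits tested, and in 5506 of the 13001 genes. The median difference of mouse 3 was -0.37 over the 6 subunits and 0.02 over all genes tested.

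Both calls were lost when any 1 library of mouse 1 or library 2 of mouse 2 was left out, but the differences stayed about as large, between -0.55 and -0.52 for Grin1 and between -0.39 and -0.34 for Grin2d. The share of all genes called fell to between 12.6 and 17.5% in these settings. Leaving out a library of mouse 3 leaves 1 library for that animal, which is assumed to vary like those of mice 1 and 2. Without library 2 of mouse 3 no subunit passed limma's test (2 at an unadjusted p under 0.05), and the differences shrank to -0.33 for Grin1 (limma adjusted p = 0.223), -0.16 for Grin2b and -0.01 for Grin2a, whereas that of Grin2d was -0.41 (limma adjusted p = 0.159). That setting called 126 genes in all (0.969%). Without library 1 of mouse 3, where library 2 alone stands for the animal, Grin1 (-0.75), Grin2a (-0.77) and Grin2b (-1.10) passed, as did 29.2% of all genes, and Grin2d (-0.31) did not. Scaling to TPM called 5 subunits, Grin1, Grin2a, Grin2b, Grin2d and Grin3a, and 43.3% of all genes, but the median difference of all genes was then -0.23, and less that median the difference was -0.60 for Grin1 and -0.33 for Grin2d. After the trend with length was removed, only Grin1 passed (-0.44, limma adjusted p = 0.0379), and Grin3a, whose transcripts are among the longest, differed by -0.03. Beside these values stand the sums of neuronal markers, which were lower, and of glial markers, which were higher in mouse 3. Their part in the differences was not tested. In whole tissue, fewer cells of a type and less RNA per cell cannot be told apart.

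**Figure D4:**
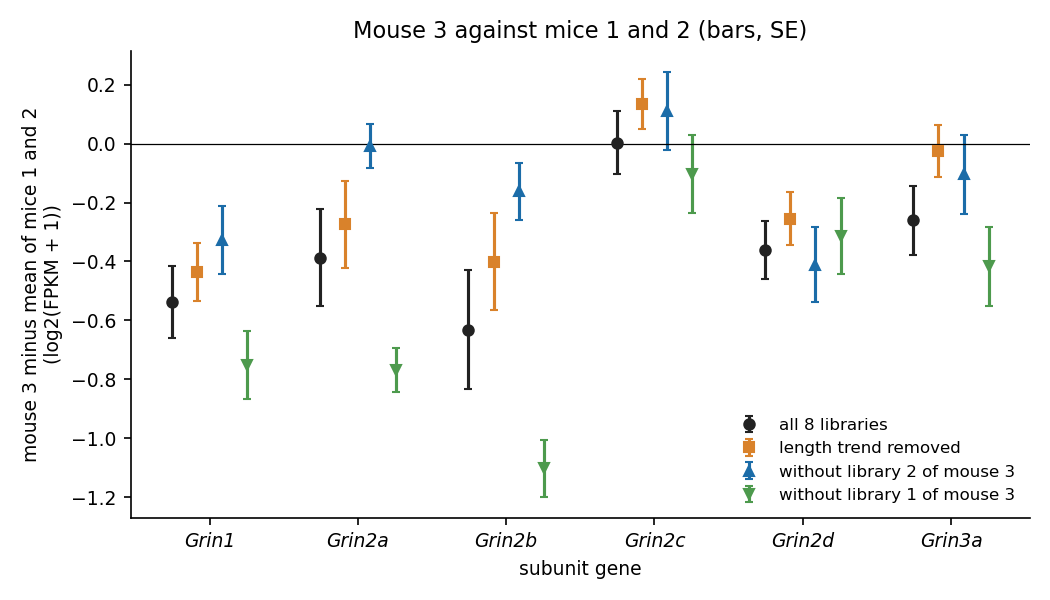
Difference of mouse 3 from the mean of mice 1 and 2 in log2(FPKM + 1) for the 6 subunits tested, with bars for the SE, in all 8 libraries, after the length trend was removed, and without either library of mouse 3. Without library 2 of mouse 3 Grin2a is at -0.01, and without library 1 it is at -0.77.

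The genes that anchor, modify or supply the receptor were read from a list of 48 partner genes in the same fit. All 48 were tested, and 22 (45.8%) passed limma's test, against the 25.5% of all genes. Of the 22, 13 had the lowest and 9 the highest level in mouse 3, against 1464 and 1829 of the 13001 genes tested. The list was chosen with earlier results of these data known, so its share is no result about the partner genes as a set. The median difference of mouse 3 over the 48 was -0.04. After scaling to TPM, under which the median difference of all genes in mouse 3 was -0.23, 26 passed, 25 with the lowest and 1 with the highest level in mouse 3. Of all genes, 43.3% then passed, 4808 with the lowest and 790 with the highest level in mouse 3. Of the 26, 14 were among the 22 called under the deposited scaling. Less the median difference of all genes, all 22 kept the sign they had under the deposited scaling. After the trend with transcript length was removed, 23 partner genes passed, 17 of them among the 22, and 20.3% of all genes did. Without library 2 of mouse 3, 3 of the 22 passed, Shank1, Camk2a and Ppp3ca, of 126 genes called in all (0.969%). The count was 12, 12 and 10 without libraries 1, 2 and 3 of mouse 1, where 14.1, 13.2 and 12.6% of all genes passed, and 13 without library 2 of mouse 2, where 17.5% did. It was 14 with the library number as a replicate block, under which 23% of all genes and 0 subunits passed (3 at an unadjusted p under 0.05 in limma).

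Of the 10 scaffold genes, which tie the receptor to the postsynaptic density, 5 passed. The most abundant was Dlg4, which encodes PSD-95, with 169 ± 20 FPKM. Its values were 160, 153 and 163 in mouse 1, 159, 156 and 156 in mouse 2, and 199 and 187 in mouse 3, a difference of 0.29 ± 0.069 on the log2(FPKM + 1) scale (SE, limma adjusted p = 0.0408). After scaling to TPM it was -0.01, or 0.22 less the median of all genes. Shank1 (0.53) and Shank3 (0.44), scaffolds deeper in the density, were also higher in mouse 3. Dlg3, which encodes SAP102 (-0.61), and Homer1, a link to metabotropic receptors (-0.47), were lower. The neighbouring scaffolds thus moved in opposite directions between the same libraries.

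Among the 15 kinase and phosphatase genes 7 passed. Camk2a, the alpha subunit of the calcium/calmodulin-dependent kinase that binds GluN2B, was the most abundant with 397 ± 90 FPKM. It had 345, 335 and 344 FPKM in mouse 1, 346, 352 and 351 in mouse 2, and 534 and 469 in mouse 3, which was higher by 0.53 ± 0.074 (SE, limma adjusted p = 0.00839). The other 6 that passed were lower in mouse 3. Ppp3ca, the catalytic subunit of calcineurin, had 211, 218 and 208 FPKM in mouse 1, 218, 196 and 204 in mouse 2, and 126 and 132 in mouse 3, a difference of -0.69 ± 0.074 (SE, limma adjusted p = 0.0051). They also included the kinase genes Ptk2b (-0.61), Prkca (-0.49), Camk2b (-0.41) and Csnk2a1 (-0.27). With the length trend removed, the differences of these kinase genes were -0.53, -0.24, -0.32 and -0.18, in the same order.

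Of the 8 genes for co-agonist supply and removal, 4 passed, all with their highest level in mouse 3. Of the 13001 genes tested, 1829 passed and were highest there. Psat1, a serine synthesis enzyme and the most abundant of them at 52.0 ± 15.4 FPKM, had 42.9, 42.6 and 44.5 in mouse 1, 36.8, 44.9 and 47.0 in mouse 2, and 62.6 and 76.8 in mouse 3 (difference 0.68 ± 0.11, SE, limma adjusted p = 0.0133). Phgdh (0.63), the first enzyme of the same pathway, Slc7a10 (0.38), a transporter of D-serine and glycine, and Slc6a9 (0.32), the glycine transporter GlyT1, were also higher. Phgdh and Psat1 are known as genes of astrocytes, and the 5 astrocyte markers were all called as well, with the sums given above. The part of the marker difference in these values was not tested. Srr, which encodes serine racemase, had 23.2 ± 1.4 FPKM and did not pass (limma adjusted p = 0.285).

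In the last group, of transport, auxiliary and calcium signalling genes, 6 of 15 passed. The most abundant, Calm2, which encodes calmodulin, had 1080 ± 104 FPKM and did not pass (limma adjusted p = 0.25). Of those that passed, 5 were lower in mouse 3, namely Actn2 (-0.73), an actinin that binds the GluN1 tail, Nos1 (-0.46), the neuronal nitric oxide synthase, Neto1 (-0.41), an auxiliary subunit of kainate receptors also tied to NMDA receptors, Cask (-0.37), a scaffold of receptor transport, and Rasgrf2 (-0.37), a Ras exchange factor. With the length trend removed, these 5 differences were -0.72, -0.18, -0.36, -0.12 and -0.20, in the same order.

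**Figure D5:**
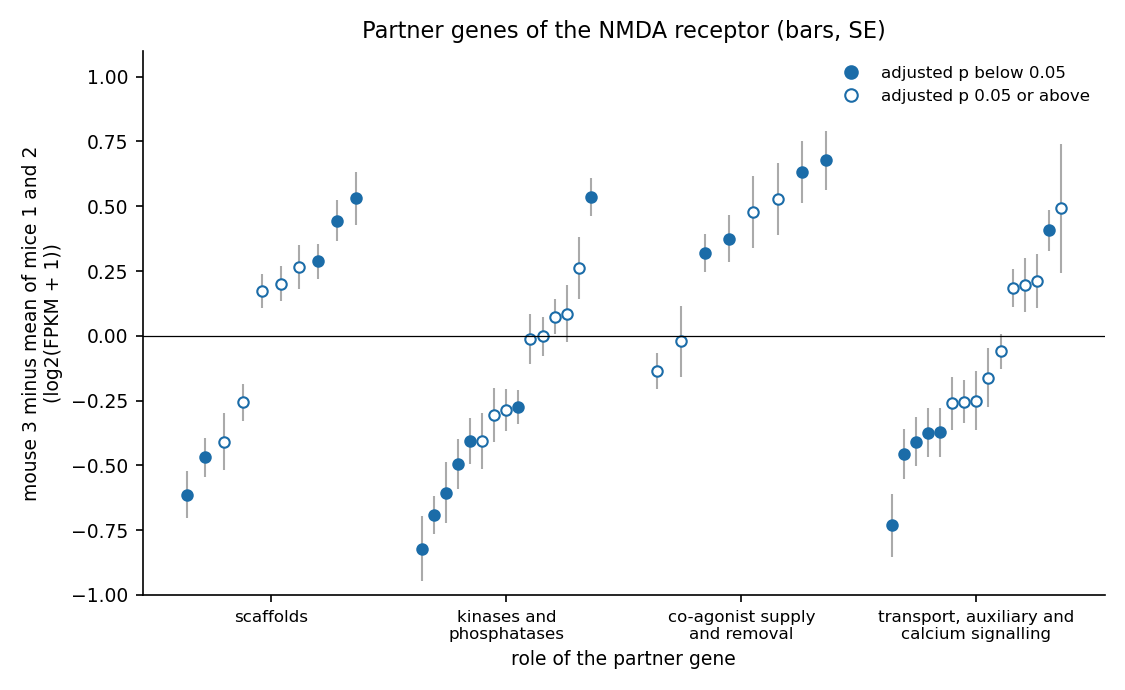
Difference of mouse 3 from the mean of mice 1 and 2 in log2(FPKM + 1) for the 48 partner genes, grouped by role and ordered within each group, with bars for the SE. Filled points mark an adjusted p below 0.05 in the F-test between the 3 mice. The 4 genes of co-agonist supply and removal that passed all lie above 0, and 6 of the 7 kinase and phosphatase genes that passed lie below it.

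To see which genes varied most like each subunit, the 8 values of every gene in log2(FPKM + 1) were centred on the mean of the 3 mice and compared by their mean absolute difference. This measure is a description of these 8 libraries, which share mice and library quality. Trim9, Atp6v0a1 and Magee1 were closest to Grin1 (0.022, 0.025 and 0.030, against a median of 0.25 over 13000 genes). Tenm1, Tbl1x and Arfgef3 were closest to Grin2a (0.066, 0.067 and 0.077). For Grin2b the closest were Golgb1, the kainate receptor gene Grik3 and Dync1h1 (0.074, 0.076 and 0.080). Their transcripts of 11025, 8842 and 14398 bases are long, like that of Grin2b. Those of the genes closest to Grin2a (4512 bases) have 8361, 2302 and 8216 bases. Ccar2 and Yars, closest to Grin3a (7651 bases), have 3704 and 2874.

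Sgpl1, Speg and Arfgap3 were closest to Grin2c (0.026, 0.029 and 0.032), Tspyl1, Zfp64 and Dok5 to Grin2d (0.041, 0.042 and 0.045), and Ccar2 and Yars to Grin3a (0.023 and 0.026). Among the subunits themselves, Grin2a came nearest to Grin2b, at place 66 of 13000 genes with a mean absolute difference of 0.12, and Grin2b was at place 184 for Grin2a. For Grin1 the nearest subunit was Grin3a, at place 1246 (0.12), and for Grin2c it was also Grin3a, at place 3372 (0.12). No subunit was thus among the 3 genes closest to another.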

How the data were processed

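Bulk RNA sequencing of whole brains was analysed in 8 libraries of 3 mice. Per the study's methods, RNA from an RNAqueous Micro kit with an integrity score above 8 was made into Kapa mRNA HyperPrep libraries. The submitters' processing notes name TopHat, Cufflinks and the build mm10, whereas versions, strandedness and read length are not given in the sources used here. The authors deposited FPKM values with confidence bounds for 34535 RefSeq transcripts. The deposited coverage is a signal, the mean read depth per base, and the deposited lengths are in bases. Depth was computed as coverage multiplied by length. FPKM are not counts, so no counting interval was given. Of 8 transcript values marked as failed, 0 belonged to the subunits.

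Values were summed over transcripts and averaged per mouse, then over mice. Differences between mice were tested with limma (3.58.1, R 4.3.3) on log2(FPKM + 1) for genes averaging 1 FPKM or more, calling Benjamini-Hochberg adjusted p below 0.05, and the code was tested on simulated data. A difference understates the change of low genes on this scale. Levels of neighbours and the Grin2a to Grin2b ratio were tested by exact permutation (Python 3.11.15). Alternatives were a pseudocount of 0.1, minimum means of 0.1 FPKM and none, TPM, upper-quartile scaling, removal of the length trend (lowess, span 0.3), the highest transcript per gene, a mean-variance trend, each library left out and the library number as a block. Sequences were cut from GENCODE vM21 transcripts matched by RefSeq identifier, 10 of 10, with GRCm38 coordinates. Named genes were the subunits, the receptor families, the partner genes that passed with the most abundant of each role, and the 3 genes most like each subunit. The members and lists were chosen with earlier results of these data known. Some genes that the rule names are not reported here by name.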

Additional observations from a re-analysis of the deposited data

Results flagged for a closer look

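In library 2 of mouse 3, Grin2a at 5.03 FPKM and Grin2b at 2.49 FPKM stood apart from the other 7 libraries (8.07 to 10.2 and 5.69 to 7.26 FPKM), because the gap to the nearest library as a part of the whole range exceeded Dixon's 95% limit for 8 values. The ratio of Grin2a to Grin2b, 2.02 in the same library against 1.26 to 1.62, also passed this limit, by a small margin (a gap of 0.528 of the range). The NMDA share of the NMDA, AMPA and kainate receptor genes was 17.2% there, against 21.3 to 23.9%. Chance would flag about 1 in 20 measures, and 4 of 16 measures were flagged, all in this library. The 8 values of each measure come from 3 mice and are not 8 independent samples, and the 4 measures share genes. Library 2 of mouse 3 also had the strongest negative correlation with transcript length (-0.57) and the highest sum of oligodendrocyte markers (4561 FPKM). Their part in the flagged values was not tested.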

How the results depend on the processing

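The count of 2 subunits that differed between the mice (25.5% of all genes called) became 1 with a minimum mean of 0.1 FPKM (18%), after removal of the length trend (20.3%), with the highest transcript of each gene (19.2%) and with a mean-variance trend (26.9%), 0 with no minimum (5.03%, 3 subunits at an unadjusted p under 0.05 in limma) and 5 with TPM (43.3%). It ranged from 0 to 3 when each library was left out (0.969 to 29.7% of all genes). The 22 partner genes became 11 with no minimum and 3 to 26 when each library was left out. Of the 11 with no minimum, 9 were among the 22. With the library number as a replicate block, 0 subunits (3 at an unadjusted p under 0.05 in limma), 14 partner genes and 23% of all genes passed. Libraries with the same number in different mice correlated by 0.0028 to 0.107 in their deviations from the mouse means, so the numbers were not taken to pair the libraries. Neighbours in the order of levels that held in every library numbered 3 to 5 when each library was left out. The Grin2a to Grin2b ratio of 1.55 became 1.53 with the length trend removed (exact p = 0.0786) and 1.49 to 1.60 when each library was left out, with p from 0.0286 to 0.371 in the exact test. The differences of Grin1, Grin2a, Grin2b, Grin2d and Grin3a stayed negative in all 17 alternatives each, of which 10 called Grin1 and 5 called Grin2d. The cause of these changes was not tested, except that leaving a library out or lowering the minimum level changes the number of libraries or of genes tested. Means of the subunits moved by less than the SD between mice when a library was left out. TPM gave other units (154 TPM for Grin1). With 3 mice, no difference between levels could pass an exact test, and the transcript shares are less certain than the summed levels.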
